A study of Homo sapiens with 75 samples.

Results

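TK6 is a human B lymphoblastoid cell line. Its messenger RNA was compared 3 h after a dose of 5 Gy of ionising radiation with that of untreated TK6 cells at the same time, on 3 arrays per group (6 of the 75 arrays of the series). The untreated cells were mock-irradiated, that is, handled alike without the dose. The series holds 5 human cell lines with 3 arrays for each of 5 groups: irradiated at 3 h and 6 h, and untreated at 0 h, 3 h and 6 h. All groups compared here are cell lines with no modification named in the labels (TK6, U2OS, from an osteosarcoma, and BJ, skin fibroblasts). The values thus describe lines in culture and not tissue. Arrays labelled G361 and HepG2 entered only the ranking of markers by line, the choice of probe sets and an alternative fit on all 75 arrays. The labels do not say whether replicate arrays came from separate cultures, and p-values then measure only the spread between arrays, which may be technical.

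Ionising radiation breaks DNA. The kinases that sense the breaks stabilise p53, a transcription factor that induces arrest, repair and death genes within hours, and cells held before mitosis lose the transcripts of mitotic genes. Known genes of these responses were set aside by a list of 141 p53-induced genes and a list of 131 genes of G2 and mitosis. The account below is of the other genes that changed. The lists do not hold every gene of either response: ATF3, MIR34A, SPDL1 and CENPC, described below, stood outside them. A place outside the lists therefore does not make a gene independent of p53 or of mitosis.

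The 6 arrays correlated at 0.977 to 0.993, and their medians lay between 3.94 and 3.99 log2. Of 17 B lymphoid markers measured, 15 had their highest mean in TK6 among all 5 lines of the series. Their mean was 8.01 to 8.25 log2 in irradiated arrays and 8.08 to 8.22 log2 in untreated ones. Myeloid markers averaged 3.41 to 3.60 log2 in irradiated arrays and 3.44 to 3.55 log2 in untreated ones, near the level limit of 3.52 log2 used as a filter, and 0 of 16 were above 7 log2. T and NK cell markers averaged 4.41 to 4.43 log2 in irradiated arrays and 4.28 to 4.37 log2 in untreated ones.

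Of 14227 genes tested, 568 were called at an adjusted p under 0.05 by limma, which is 3.99% of all. The higher calls were 268 genes (1.88%) and the lower calls 300 genes (2.11%). In the text, rose and fell mean called higher or lower. Counts of rises and falls in the lists below stand against these shares of 1.88% and 2.11%, and no list was tested as a set. The p53 list accounted for 82 rises among 122 tested members (median log2 change 0.82) and 0 falls, and the list of G2 and mitosis for 77 falls among 128 (median -0.53) and 0 rises. Outside both lists 186 genes rose and 223 fell, and 346 of these 409 stood in none of the 35 other gene lists used. With the replicate number as a block, 1203 genes were called (8.46%, of which 4.03% higher and 4.42% lower), and 480 genes rose and 539 fell outside the lists, the 409 among them. Where the block moved a list's count of calls by over 1.5 times, the blocked count stands beside it below. Single arrays set the size of these counts. Outside the lists 121 rises were called without irradiated replicate 1 and 119 without untreated replicate 2 (118 and 117 of them among the 186). Without irradiated replicates 1, 2 and 3 and untreated replicate 3, 145, 133, 139 and 139 falls were called (131, 129, 133 and 134 among the 223). The other removals of a single array gave 128 to 209 rises and 194 to 216 falls.

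The called rises outside the lists had a median log2 change of 0.79, and 49 of 186 were at least 2-fold, while the called falls had a median of -0.60 and 19 of 223 were at least 2-fold. The sizes are those of genes that passed a threshold. The rises had a lower median untreated level (6.97 log2, against 8.31 log2 for the falls) and a larger median SE (0.15 against 0.12), so that a larger change was needed for a call. The median over all genes tested was 0.01. The 3 irradiated and 3 untreated arrays did not overlap in 184 of the rises and 221 of the falls (8.37% and 8.99% of all genes tested in those directions), which the calls from the same 6 arrays largely fix. All 3 irradiated arrays also lay above all 3 untreated arrays of 0 h in 170 of the rises and below them in 190 of the falls. Among the called genes named below, the irradiated arrays overlapped the 0 h arrays in the rises of BLNK, NUPR1, IER3, CDC6, ADA, HSD17B7 and CEL. They also did so in the falls of MYB, SMAD1, BAG2, VCAM1, IFIT1, GPR183, EOMES, IRF4, HTR6 and H2AC6. Over all 14227 genes tested, the irradiated arrays lay beyond those of 0 h on the side of their change in 3143, and the calls share these irradiated arrays.

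**Figure D1:**
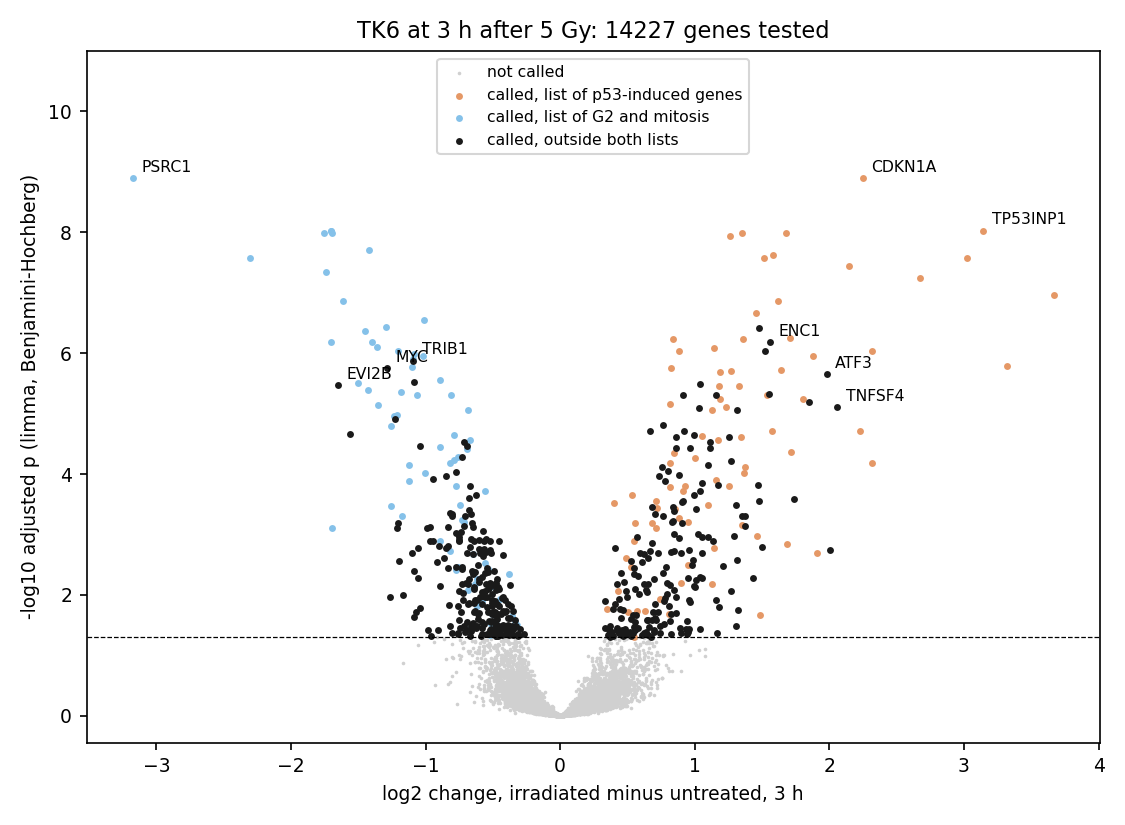
Each point is 1 of the 14227 genes tested. The horizontal axis is the log2 change (irradiated minus untreated TK6 at 3 h), the vertical axis is -log10 of limma's adjusted p, and the dashed line marks 0.05. Black points are the 409 called genes outside the lists of p53-induced genes (orange) and of G2 and mitosis (light blue). They reach 2.06 for TNFSF4 and -1.65 for EVI2B, while the lists reach 3.67 and -3.18.

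TNFSF4, the OX40 ligand that costimulates T cells, stood at 6.90, 6.67 and 6.42 log2 in irradiated arrays and at 4.53, 4.50 and 4.78 log2 in untreated ones. The groups were far from overlapping, and the change of 2.06 ± 0.23 (SE, adjusted p = 7.91e-06) was the largest outside the lists. TNFSF9, the 4-1BB ligand of the same family, had 9.05, 9.47 and 9.48 log2 in irradiated arrays and 7.72, 7.33 and 8.46 log2 in untreated ones. Its groups did not overlap, though the untreated arrays spread widely, and the change was 1.5 ± 0.27 (adjusted p = 0.00163). LIF, a cytokine of the interleukin-6 family, had 7.03, 6.76 and 6.83 log2 in irradiated arrays, against 5.27, 5.15 and 5.55 log2 in untreated ones (change 1.55 ± 0.16, adjusted p = 4.66e-06).

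CEACAM1, an adhesion receptor with inhibitory signalling in lymphocytes, rose by 1.73 ± 0.26 (adjusted p = 0.000258). Its irradiated arrays were at 7.57, 6.66 and 6.72 log2 and its untreated arrays at 5.63, 5.05 and 5.08 log2, with replicate 1 the highest in both groups. CSF1, the macrophage growth factor, rose by 1.03 ± 0.17 (adjusted p = 0.000965). Dimmer CSF1 probe sets, at 4.26 and 4.24 log2 in TK6, changed by 0.14 and 0.10.

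In the list of cytokines, chemokines and their receptors, 46 members were tested, 4 rose (TNFSF4, LIF, TNFSF9 and CSF1) and 3 fell, with a list median of -0.07. With the block 9 rose and 4 fell. TNF, the inflammatory cytokine, had 5.91, 6.02 and 5.48 log2 in irradiated arrays and 6.96, 6.55 and 6.74 log2 in untreated ones. The groups did not overlap, and TNF fell by 0.94 on the log2 scale (adjusted p = 0.0013), in the direction opposite to its family members TNFSF4 and TNFSF9. GPR183, a receptor that positions B cells in lymphoid tissue, fell by 1.06 (adjusted p = 0.00526), and IFNGR1, a chain of the interferon-gamma receptor, fell by 0.47 (adjusted p = 0.0142). The IFNGR1 call was lost without irradiated replicate 1 or untreated replicate 3 (adjusted p up to 0.101). The lymphotoxins LTA and LTB were not called, with changes of -0.47 and -0.21.

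Further immune genes were singled out after their values were seen. MR1, which presents microbial metabolites to T cells, had 8.42, 8.09 and 8.20 log2 in irradiated arrays and 7.05, 7.16 and 7.18 log2 in untreated ones, a change of 1.11 ± 0.14 (adjusted p = 2.98e-05). APOBEC3G, a cytidine deaminase that restricts retroviruses, rose by 1.0 ± 0.15 (adjusted p = 0.000225), and SDC1, a proteoglycan known as a plasma cell surface marker, by 1.04 ± 0.11 (adjusted p = 3.2e-06). Both had groups that did not overlap. A dimmer APOBEC3G probe set, at 5.93 log2 in TK6, changed by 0.08. IFNG, interferon gamma, was low throughout, with 5.65, 5.52 and 5.79 log2 in irradiated arrays and 4.18, 4.73 and 4.09 log2 in untreated ones. Its change of 1.32 ± 0.31 (adjusted p = 0.018) was no longer called when replicate 1 or 3 of either group was left out (adjusted p up to 0.0913).

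TLR10, a receptor prominent in B cells, was at 9.15, 8.83 and 8.94 log2 in irradiated arrays and at 9.76, 9.51 and 9.91 log2 in untreated ones (change -0.75 ± 0.13, adjusted p = 0.00128). Its neighbour TLR1 changed by -0.59 ± 0.16 (adjusted p = 0.0485), and the call was lost without any 1 of the 3 irradiated arrays or without untreated replicate 1 or 3 (adjusted p up to 0.213). TLR6, from the same gene cluster, was not called (-0.26 ± 0.27). Another TLR6 probe set, at 5.38 log2 in TK6 against 5.39 log2 for the set used, changed by -0.69 and was not tested. P2RY10, a lysophosphatidylserine receptor of lymphocytes, fell by 1.09 (adjusted p = 3.06e-06), with 7.81, 8.02 and 7.94 log2 in irradiated arrays against 9.10, 8.89 and 9.05 log2 in untreated ones. ACKR3, a scavenging chemokine receptor, fell by 0.69 (adjusted p = 0.00203), and GPR18, a lipid receptor, by 0.60 (adjusted p = 0.00171). TLR10, TLR1, TLR6 and ACKR3 were chosen after their values were seen.

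EVI2B and EVI2A lie side by side within an intron of NF1 and encode membrane proteins of blood cells. EVI2B had 6.82, 6.92 and 6.71 log2 in irradiated arrays and 8.19, 8.85 and 8.36 log2 in untreated ones. It fell by 1.65 on the log2 scale, 3.13-fold lower in irradiated cells (SE 0.17, adjusted p = 3.4e-06), and had the largest fall outside the lists. EVI2A had 4.67, 4.86 and 5.28 log2 in irradiated arrays, against 6.24, 5.8 and 6.41 log2 in untreated ones (change -1.21 ± 0.20, adjusted p = 0.000771). Neither gene's groups overlapped. Other large falls were those of ST8SIA4, a polysialyltransferase (change -1.20 ± 0.23, adjusted p = 0.00271), and RIPOR2, an inhibitor of RhoA (-1.09 ± 0.21, adjusted p = 0.00398). LCP2, an adaptor of antigen receptor signalling, and CYTIP, a regulator of leukocyte adhesion, were picked after their values were seen and fell by 0.99 and 0.97 (adjusted p = 0.000791 and 0.00126).

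**Figure D2:**
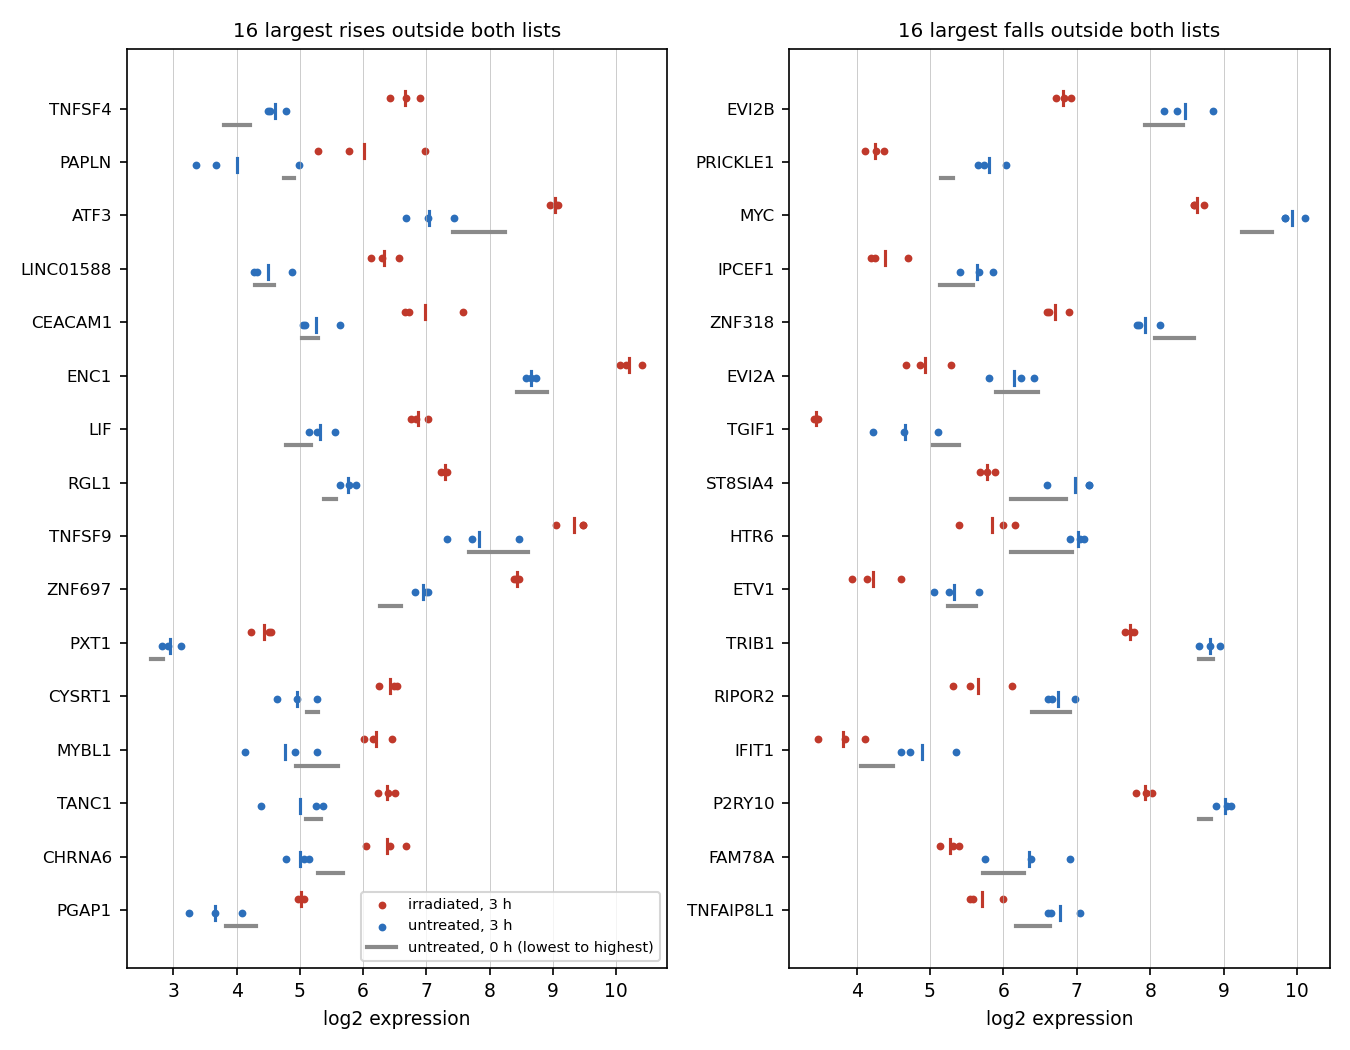
Points are single TK6 arrays at 3 h, irradiated (red) above untreated (blue), on a horizontal axis of log2 expression, for the 16 largest rises and the 16 largest falls outside the lists. Vertical ticks are means of 3 arrays and grey bars span the 3 untreated arrays of 0 h. In each gene shown all red points lie on the same side of all blue ones. The ATF3 bar, 7.42 to 8.24 log2, reaches above its blue points, and the IFIT1 bar, 4.06 to 4.49 log2, lies below all of its blue points.

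In the list of B cell receptor and surface genes 36 were tested, 1 rose and 0 fell (median -0.07), no larger a share than the 3.99% over all genes, and 3 rose and 4 fell with the block. The 1 gene was BLNK, the linker of B cell receptor signalling, with 9.91, 10.02 and 9.96 log2 in irradiated arrays and 9.16, 9.22 and 9.22 log2 in untreated ones (change 0.76 ± 0.09, adjusted p = 1.55e-05). The untreated arrays of 0 h were at 9.66 to 9.96 log2, so the irradiated arrays lay near the 0 h level and the untreated arrays of 3 h below it. CD79A and MS4A1 (CD20) were not called, with changes of -0.10 ± 0.21 and -0.02 ± 0.12. A brighter probe set of MS4A1 in TK6 changed by -0.16.

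Among B cell transcription factors, 20 were tested, 0 rose and 4 fell (median -0.23). MEF2C, a factor needed for B cell proliferation, was at 8.52, 8.77 and 8.87 log2 in irradiated arrays and at 9.49, 9.61 and 9.60 log2 in untreated ones (change -0.85 ± 0.12, adjusted p = 0.000108). IKZF2, or Helios, an Ikaros family factor, fell by 0.64 (adjusted p = 0.00447). IRF4, which directs plasma cell formation, fell by 0.45 (adjusted p = 0.00802), a call lost without irradiated replicate 3 (adjusted p = 0.07). ETS1 fell by 0.48 (adjusted p = 0.0303), a call lost without any 1 of the 6 arrays (adjusted p up to 0.154). PAX5 and EBF1, which maintain B cell identity, were not called (-0.07 ± 0.20 and -0.19 ± 0.20). Dimmer EBF1 probe sets, at 8.48 and 6.61 log2 in TK6, changed by -0.25 and -0.62 and were not tested. The PAX5 probe set taken by its mean over the 75 arrays averaged 4.96 log2 in TK6, and another PAX5 probe set, at 9.64 log2 in TK6, changed by -0.29 and was not tested.

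Some transcription factors outside that list were chosen after their values were seen. HHEX, a homeobox factor, had 6.36, 6.48 and 6.44 log2 in irradiated arrays and 7.53, 7.39 and 7.48 log2 in untreated ones. The arrays of each group lay close together and the groups did not overlap, and HHEX fell by 1.04 (adjusted p = 3.41e-05). HEY1, a Notch target, fell by 0.82 (adjusted p = 0.000436). MYB, the regulator of blood progenitors, fell by 0.50 (adjusted p = 0.0155), a call lost without irradiated replicate 2 or 3 or untreated replicate 2 (adjusted p up to 0.0796). The irradiated MYB arrays, at 7.61, 7.45 and 7.48 log2, lay within the 7.30 to 7.62 log2 of the untreated 0 h arrays. The untreated arrays of 3 h, at 7.91, 8.18 and 7.96 log2, lay above that range of MYB. MYBL1, a relative of MYB in germinal centre B cells, went the other way, with 6.45, 6.02 and 6.15 log2 in irradiated arrays and 5.27, 4.13 and 4.92 log2 in untreated ones (change 1.43 ± 0.29, adjusted p = 0.00526). Dimmer MYBL1 probe sets, at 4.66 and 3.87 log2 in TK6, changed by -0.0 and 0.16. EOMES, a T-box factor, changed by -0.91 ± 0.24 (adjusted p = 0.038), and its call was lost when irradiated replicate 1 or 3, or untreated replicate 2 or 3, was left out (adjusted p up to 0.22). Those chosen in this way were HHEX, HEY1, MYB and EOMES.

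MYC, the growth-promoting transcription factor, had 8.60, 8.73 and 8.59 log2 in irradiated arrays and 9.83, 9.84 and 10.11 log2 in untreated ones. No irradiated array came within 1 log2 of an untreated one. MYC fell by 1.29, and was 2.44-fold lower in irradiated cells (SE 0.12, adjusted p = 1.78e-06). It was the 1 member called among 11 tested of the MYC network (median -0.17, 2 falls with the block), and its partner MAX was not called (-0.11 ± 0.11). Among 39 ribosome biogenesis genes, a group that MYC is known to drive, 0 rose and 1 fell (median -0.04), or 1 and 2 with the block. The gene called without it was URB2, which changed by -0.64 ± 0.14 (adjusted p = 0.0123), and its call was lost when irradiated replicate 1 or 3, or untreated replicate 2 or 3, was left out (adjusted p up to 0.0748). NCL, or nucleolin, was not called (-0.04 ± 0.09).

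Of 62 immediate early and short-lived regulators tested, 3 rose and 6 fell, with a list median of -0.09. With the block 8 rose and 13 fell. ATF3, a stress-induced factor also described as a p53 target, had 9.04, 8.96 and 9.08 log2 in irradiated arrays and 7.03, 6.67 and 7.43 log2 in untreated ones. It was 3.94-fold higher in irradiated cells (log2 change 1.98 ± 0.19, adjusted p = 2.23e-06). IER3, a survival factor, rose by 0.48 ± 0.10 (adjusted p = 0.00602). IER5, which is also in the p53 list, rose by 0.43 ± 0.09 (adjusted p = 0.00856), a call lost without irradiated replicate 3 (adjusted p = 0.0589).

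TRIB1, a pseudokinase that steers the COP1 ubiquitin ligase, had 7.65, 7.78 and 7.74 log2 in irradiated arrays and 8.82, 8.95 and 8.67 log2 in untreated ones. It fell by 1.09 (SE 0.10, adjusted p = 1.33e-06), and its groups did not overlap. IER2 fell by 0.67 (adjusted p = 0.000157), ID2, an inhibitor of differentiation factors, by 0.72 (adjusted p = 0.000735), and SPRY2, a brake on growth factor signalling, by 0.52 (adjusted p = 0.00638). KLF2, a quiescence factor of lymphocytes, changed by -0.75 ± 0.19 (adjusted p = 0.0255), and ETS2 by -0.58 ± 0.15 (adjusted p = 0.0356). Each of the calls of KLF2 and ETS2 was lost without irradiated replicate 1, and without untreated replicate 1. KLF2 was also lost without replicate 2 of either group and ETS2 without replicate 3 of either group (adjusted p up to 0.156 and 0.203). EGR1, FOS and JUN, the classical serum response genes, were not called (0.57 ± 0.21, 0.42 ± 0.30 and -0.33 ± 0.20). EGR1 was called higher with the block (adjusted p = 0.0477, against 0.191 without it).

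Among 31 NF-kB targets, 1 rose and 1 fell (median -0.02), or 4 and 3 with the block. NINJ1, which is in the p53 list as well and whose protein ruptures the membrane of dying cells, rose by 0.93 ± 0.13 (adjusted p = 0.000157). VCAM1, an adhesion molecule, changed by -0.82 ± 0.21 (adjusted p = 0.0331). Its call was lost without any 1 irradiated array or without untreated replicate 1 or 3 (adjusted p up to 0.137), and its untreated arrays of 0 h were at 3.90 to 4.76 log2, against 4.98 to 5.31 log2 at 3 h. The NF-kB feedback genes NFKBIA and TNFAIP3 were not called (0.10 ± 0.09 and 0.13 ± 0.12). Of 43 interferon-stimulated genes 0 rose and 2 fell (median -0.03), or 0 and 5 with the block. The calls without it were IFIT1, an RNA-binding antiviral protein (change -1.09 ± 0.27, adjusted p = 0.0231), and SP100, a nuclear body protein (-0.64 ± 0.15, adjusted p = 0.0136). Both calls were lost when irradiated replicate 2 or 3, or untreated replicate 1, was left out (adjusted p up to 0.13 and 0.0824). Another SP100 probe set, at 8.03 log2 in TK6 against 8.24 log2 for the set used, changed by -0.13. By limma 0 of 30 antigen presentation genes were called, and 0 had an unadjusted p under 0.05.

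STAT3, the transcription factor that LIF receptors activate, was singled out after its values were seen. It had 9.05, 8.86 and 8.94 log2 in irradiated arrays and 8.39, 7.86 and 8.09 log2 in untreated ones, and rose by 0.84 ± 0.13 (adjusted p = 0.000349). PDE4B, which degrades cyclic AMP, rose by 1.15 ± 0.12 (adjusted p = 4.96e-06). SMAD5 and SMAD1, closely related transducers of bone morphogenetic protein signals, moved apart. SMAD5 was at 8.12, 8.31 and 8.32 log2 in irradiated arrays and at 7.23, 7.40 and 7.38 log2 in untreated ones (0.91 ± 0.14, adjusted p = 0.000274). SMAD1 was at 9.77, 9.73 and 9.5 log2 in irradiated arrays and at 10.21, 10.05 and 10.11 log2 in untreated ones. Its change of -0.46 ± 0.12 (adjusted p = 0.0331) was lost as a call without irradiated replicate 2 or 3 or any 1 untreated array (adjusted p up to 0.175). The untreated 0 h arrays of SMAD1 were at 9.46 to 9.99 log2. Its irradiated arrays lay within that range and its untreated arrays of 3 h above it. PDE4B, SMAD1 and SMAD5 were also chosen after their values were seen.

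A pair of activators of the Ral GTPases rose. RGL1 had 7.30, 7.23 and 7.33 log2 in irradiated arrays and 5.78, 5.63 and 5.88 log2 in untreated ones (change 1.52 ± 0.14, adjusted p = 9.18e-07). RALGDS, chosen after its values were seen, had 9.45, 9.12 and 9.14 log2 in irradiated arrays and 8.19, 7.51 and 8.06 log2 in untreated ones (1.32 ± 0.15, adjusted p = 8.7e-06). Neither gene's groups overlapped. ENC1, an actin-binding kelch protein, was at 10.41, 10.15 and 10.06 log2 in irradiated arrays and at 8.73, 8.57 and 8.65 log2 in untreated ones. It rose by 1.56 ± 0.14 (adjusted p = 6.54e-07), and its groups did not overlap.

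The other genes of the 16 largest rises came from scattered functions. PAPLN, an extracellular matrix protein, had 6.98, 5.78 and 5.29 log2 in irradiated arrays and 4.99, 3.36 and 3.68 log2 in untreated ones (2.01 ± 0.36, adjusted p = 0.00182), with replicate 1 the highest in both groups. A dimmer PAPLN probe set, at 3.80 log2 in TK6, changed by -0.01. ZNF697, a zinc finger gene, had 8.47, 8.39 and 8.41 log2 in irradiated arrays and 6.82, 6.99 and 7.02 log2 in untreated ones, and its change of 1.48 ± 0.12 had the smallest adjusted p outside the lists (3.81e-07). LINC01588, a long noncoding RNA, rose by 1.85 ± 0.20 (adjusted p = 6.36e-06). The remaining ones were CYSRT1 (1.47), TANC1, a synaptic scaffold (1.37), CHRNA6, a nicotinic receptor subunit (1.37), and PGAP1, an enzyme that remodels lipid anchors (1.35). PXT1 had 4.55, 4.52 and 4.23 log2 in irradiated arrays, and its untreated arrays, at 2.82, 3.13 and 2.91 log2, were below the level limit. Its change was 1.47, or 0.91 when counted from that limit. F5, coagulation factor V, was picked after its values were seen and rose by 1.29 ± 0.22 (adjusted p = 0.00106).

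Among the largest falls, PRICKLE1, a planar cell polarity protein, had 4.37, 4.26 and 4.12 log2 in irradiated arrays and 6.04, 5.65 and 5.74 log2 in untreated ones (-1.56 ± 0.19, adjusted p = 2.16e-05). ZNF318, a zinc finger gene that in mice controls the choice between IgM and IgD transcripts, fell by 1.23 (adjusted p = 1.23e-05). ETV1, an ETS factor, fell by 1.10 (adjusted p = 0.00203) and TNFAIP8L1 by 1.06 (adjusted p = 0.00167). On the probe set used, TGIF1, a homeobox repressor, had 3.48, 3.42 and 3.46 log2 in irradiated arrays, below the level limit, and 5.11, 4.23 and 4.64 log2 in untreated ones, a change of -1.21, or -1.14 when counted from the limit. Another TGIF1 probe set, at 5.01 log2 on average in TK6, changed by 0.09, so the probe sets of TGIF1 disagree. For ETV1 a slightly brighter probe set in TK6 changed by -0.36. IPCEF1 (-1.27), the serotonin receptor HTR6 (-1.17) and FAM78A (-1.07) were less stable. The HTR6 call was lost without irradiated replicate 1, that of IPCEF1 without irradiated replicate 2 or 3 or untreated replicate 2, and that of FAM78A without irradiated replicate 1 or 2 or untreated replicate 2 (adjusted p up to 0.0715, 0.0594 and 0.107).

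Of 1050 long noncoding RNAs tested 12 rose and 2 fell, of which 10 and 2 were outside the lists. Genes named ZNF and a number gave 6 rises and 5 falls among 311 tested (median -0.04). Neither group had a larger share of calls than the 3.99% over all genes tested. The rises and falls outside the lists spanned similar gene lengths, with medians of 33.0 kb and 28.6 kb from start to end of the annotated gene, against 25.8 kb over all genes tested.

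MIR34A is the gene of miR-34a, a microRNA described as a direct p53 target, and it was chosen after its values were seen. The array reads a transcript annotated to that gene and not the mature microRNA. Its probe set was at 7.29, 7.11 and 6.99 log2 in irradiated arrays and at 6.22, 5.86 and 5.81 log2 in untreated ones, a change of 1.17 ± 0.16 (adjusted p = 0.000151). It stood outside the p53 list because the list named another symbol of the locus. The mature sequences from RefSeq (GRCh38.p14, minus strand) are shown because they are the products of this gene, with the seed, bases 2 to 8, in capitals, for the 5p arm at chr1:9151735-9151756 and the 3p arm at chr1:9151693-9151714.
hsa-miR-34a-5p: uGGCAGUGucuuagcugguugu
hsa-miR-34a-3p: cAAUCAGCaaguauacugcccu

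Of 30 BCL2 family members and caspases tested, 3 rose and 1 fell (median 0.03). APAF1, the core of the apoptosome and also a member of the p53 list, had 6.93, 6.62 and 6.98 log2 in irradiated arrays and 5.51, 4.63 and 5.25 log2 in untreated ones (1.71 ± 0.22, adjusted p = 4.34e-05). CASP1, the inflammasome caspase, rose by 0.77 ± 0.15 (adjusted p = 0.00439). BAK1, a pore-forming effector, changed by 0.65 ± 0.16 (adjusted p = 0.0259), a call lost without any 1 irradiated array or without untreated replicate 2 or 3 (adjusted p up to 0.117). FADD, the adaptor of death receptors, changed by -0.42 ± 0.10 (adjusted p = 0.0186), a call lost without replicate 2 of either group, irradiated replicate 1 or untreated replicate 3 (adjusted p up to 0.105). BCL2 was not called (0.15 ± 0.21).

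RAD51C, a recombination factor, was the 1 call among 56 genes of double-strand break signalling and repair (median -0.01), no larger a share than the 3.99% over all genes, and 4 rose and 2 fell with the block. It had 9.97, 9.89 and 9.97 log2 in irradiated arrays and 9.06, 8.88 and 9.14 log2 in untreated ones (0.91 ± 0.10, adjusted p = 4.93e-06). Of 43 genes of excision, mismatch and bypass repair 2 rose (median 0.03): APTX, which clears adenylated DNA ends, by 0.78 ± 0.11 (adjusted p = 0.00013), and LIG1, the replicative ligase, by 0.55 ± 0.11 (adjusted p = 0.0036). By limma 0 of 17 Fanconi anaemia genes were called, with 4 at an unadjusted p under 0.05, and with the block 1 rose and 2 fell. ATM, BRCA1 and CHEK1 were not called (-0.16 ± 0.15, -0.05 ± 0.12 and -0.01 ± 0.20).

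Among 78 genes of DNA replication and S phase, 4 rose and 1 fell (median 0.10), or 9 and 2 with the block. The rises were LIG1, POLA2, a subunit of the primase complex (0.55 ± 0.11, adjusted p = 0.00447), GINS4, a helicase subunit (1.16 ± 0.26, adjusted p = 0.0122), and CDC6, an origin licensing factor (0.43 ± 0.12, adjusted p = 0.042). GINS4 was at 8.74, 8.87 and 8.77 log2 in irradiated arrays and at 8.05, 6.71 and 8.14 log2 in untreated ones, of which replicate 2 stood well below the other two. DBF4, the activator of the CDC7 kinase, changed by -0.66 ± 0.17 (adjusted p = 0.033). The GINS4 call was lost without irradiated replicate 2 (adjusted p = 0.0546), that of CDC6 without any 1 of the 6 arrays (adjusted p up to 0.201), and that of DBF4 without irradiated replicate 1 or 3 or untreated replicate 3 (adjusted p up to 0.19). MCM2 was not called (-0.06 ± 0.08). Among 28 replication-dependent histones, H2AC6 alone was called without the block (1 rose and 1 fell with it; -0.71 ± 0.19, adjusted p = 0.0405), and not without any 1 of the 6 arrays (adjusted p up to 0.158).

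CDKN1B, the inhibitor p27, was at 8.99, 9.16 and 9.10 log2 in irradiated arrays and at 9.55, 9.73 and 9.59 log2 in untreated ones (-0.54 ± 0.11, adjusted p = 0.00424). It was 1 of 3 falls among 30 inhibitors and G1 cyclins (median -0.03), with 0 rises. The other calls, CCNJ (-0.72) and E2F5 (-0.62), were lost without irradiated replicate 3 or untreated replicate 1 and without irradiated replicate 1 or 2 or untreated replicate 3 (adjusted p up to 0.0843 and 0.085). Of 23 core regulators of p53, 0 rose and 2 fell (median -0.03), or 0 and 4 with the block. SIRT1, a deacetylase that acts on p53, had 6.77, 7.08 and 6.85 log2 in irradiated arrays and 7.41, 8.24 and 7.79 log2 in untreated ones (-0.92 ± 0.17, adjusted p = 0.00286). DAXX changed by -0.43 ± 0.11 (adjusted p = 0.0359), a call lost without any 1 irradiated array or without untreated replicate 2 or 3 (adjusted p up to 0.172). Another DAXX probe set, at 7.28 log2 in TK6 against 7.55 log2 for the set used, changed by -0.08. DYRK2, a kinase of p53 chosen after its values were seen, fell by 0.68 (adjusted p = 0.00539).

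CCP110, which caps centrioles, had 8.87, 8.84 and 8.90 log2 in irradiated arrays and 8.02, 7.94 and 7.89 log2 in untreated ones (0.92 ± 0.11, adjusted p = 1.95e-05). CEP120 also rose (0.77 ± 0.17, adjusted p = 0.0127), and STIL, which is in the list of G2 and mitosis too, and OFD1 fell (-0.62 ± 0.13, adjusted p = 0.00539, and -0.49 ± 0.11, adjusted p = 0.0126), among 59 tested (median -0.08). With the block 3 rose and 5 fell. The call of CEP120 was lost without replicate 2 of either group and that of OFD1 without irradiated replicate 3 (adjusted p up to 0.0861 and 0.0648). HYLS1, another centriole protein, fell by 0.71 (adjusted p = 2.98e-05).

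CTCF, the insulator protein, was at 9.11, 9.06 and 9.04 log2 in irradiated arrays and at 9.46, 9.45 and 9.59 log2 in untreated ones, and fell by 0.43 (adjusted p = 0.00221). CTCF is in a list of 38 genes of cohesin and chromatin architecture (median -0.06), in which 1 rose and 1 fell, or 1 and 8 with the block. LMNA, a lamin gene and the rise in that list, changed by 0.48 ± 0.13 (adjusted p = 0.036), a call lost when irradiated replicate 1 or 3, or untreated replicate 2, was left out (adjusted p up to 0.157). Of 50 genes of splicing and 3' end processing, CLP1 and CSTF3, both of pre-mRNA 3' end cleavage, rose (0.76 ± 0.10, adjusted p = 7.63e-05, and 0.62 ± 0.11, adjusted p = 0.00208). Dimmer CSTF3 probe sets, at 8.30 and 6.66 log2 in TK6, changed by 0.44 and -0.05. A dimmer CLP1 probe set, at 4.99 log2, changed by 0.03. SRSF5 changed by -0.31 ± 0.08 (adjusted p = 0.0446) and was not called without any 1 of the 6 arrays (adjusted p up to 0.211). ELL2, an elongation factor that promotes secretory immunoglobulin transcripts, rose by 0.85 ± 0.14 (adjusted p = 0.000966). GTF2B (0.39 ± 0.10, adjusted p = 0.0405) was the other call among 52 genes of RNA polymerase II transcription (4 rises and 2 falls with the block), and was lost without any 1 irradiated array or without untreated replicate 1 or 3 (adjusted p up to 0.152).

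NUPR1, a stress-induced chromatin protein, had 5.8, 5.33 and 5.83 log2 in irradiated arrays and 4.66, 3.70 and 4.78 log2 in untreated ones (1.27 ± 0.27, adjusted p = 0.00844). With SARS1 (0.33 ± 0.08, adjusted p = 0.0128, 0.0761 without irradiated replicate 2) it made 2 rises and 0 falls among 38 genes of the integrated and unfolded stress response (median 0.01, 3 rises and 1 fall with the block), and DDIT3 (CHOP) was not called (0.27 ± 0.16). PRKAB1, a subunit of AMP-activated kinase that is also in the p53 list, rose by 1.36 ± 0.12 (adjusted p = 5.82e-07). PIK3CG, the leukocyte PI3 kinase, had 6.20, 6.54 and 6.53 log2 in irradiated arrays and 7.5, 7.08 and 7.22 log2 in untreated ones (-0.85 ± 0.15, adjusted p = 0.00169). These were the calls among 43 genes of PI3K, mTOR and AMPK signalling (median 0.02), of which 2 rose and 3 fell with the block. By limma 0 of 55 autophagy and lysosome genes and 0 of 36 antioxidant genes were called, with 10 and 4 at an unadjusted p under 0.05. With the block 2 and 4 were called.

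Ubiquitin ligases gave 0 rises and 3 falls among 48 tested (median -0.07). CBLB, a brake on antigen receptor signalling, fell by 0.61 (adjusted p = 0.00124), FBXO30 by 0.67 (adjusted p = 0.00158) and SIAH2 by 0.55 (adjusted p = 0.00191), each with groups that did not overlap. Among 25 heat shock chaperones BAG2 was called (4 rises and 1 fall with the block; -0.38 ± 0.10, adjusted p = 0.0457), among 36 nucleotide supply genes NME1 (0.33 ± 0.09, adjusted p = 0.0355) and ADA (0.42 ± 0.11, adjusted p = 0.0375), and among 31 lipid synthesis genes HSD17B7 (0.64 ± 0.14, adjusted p = 0.00816) and SQLE (-0.53 ± 0.14, adjusted p = 0.0446). All 5 of these calls were lost in at least 2 of the 6 removals of a single array (adjusted p up to 0.206, 0.184, 0.186, 0.0629 and 0.237 in that order). The arrays concerned were irradiated replicates 1 and 2 and the 3 untreated arrays for BAG2, irradiated replicates 1 and 2 and untreated replicates 2 and 3 for NME1 and ADA, irradiated replicate 1 and untreated replicate 2 for HSD17B7, and irradiated replicates 1 and 3 and untreated replicates 2 and 3 for SQLE. The irradiated BAG2 arrays, at 8.42, 8.51 and 8.66 log2, overlapped the 8.32 to 8.60 log2 of its untreated 0 h arrays. MITF, listed as a melanocyte factor and also present in B cells, fell by 0.65 (adjusted p = 0.000747), and 0 other members of the lists of other cell types were called.

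The 6 h arrays share no array with those of 3 h, and give the irradiation effect a second time, later, with 887 genes called (6.23% of those tested). Most rises outside the lists were called at 6 h too: 150 of 186 were called higher there (background 4.01%), 184 had the same sign, and their median was 0.75. Most falls were not called there. Of 223, 45 were called lower at 6 h (background 2.23%), 192 had the same sign, and their median was -0.24, against -0.60 at 3 h. Rises and falls alike were chosen by their 3 h change, which enlarges the 3 h medians.

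The effect at 6 h minus that at 3 h was itself tested. It was called for 42 genes (0.295% of those tested, 0.281% higher and 0.0141% lower at 6 h), among them 0 of the 186 rises and 8 of the 223 falls. All 8 were less negative at 6 h. The falls were chosen by the 3 h values that this difference subtracts, which favours that direction. They were TRIB1 (-1.09 at 3 h and -0.20 at 6 h, adjusted p of the difference 0.00786), ZNF443 (-0.78 and 0.07), ETV1 (-1.10 and 0.48), HYLS1 (-0.71 and -0.03), CDR2 (-0.73 and 0.00), GPR18 (-0.60 and 0.22), UBALD2 (-0.73 and 0.34) and IER2 (-0.67 and -0.01). Without replicate 3 of each group the difference was called for 0 genes by limma, with 571 at an unadjusted p under 0.05, and without replicate 2 for 12. MYC remained called lower at 6 h (-0.59, adjusted p = 0.00606), as did EVI2B (-0.82, adjusted p = 0.00499) and P2RY10 (-0.52, adjusted p = 0.00645), and for these 3 genes the difference between the times was not called (adjusted p 0.153, 0.259 and 0.205). HTR6 was also called lower at 6 h (-1.67, adjusted p = 0.00036). TNFSF4, CEACAM1 and LINC01588 were called at 6 h with changes of 2.58, 2.50 and 2.44.

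**Figure D3:**
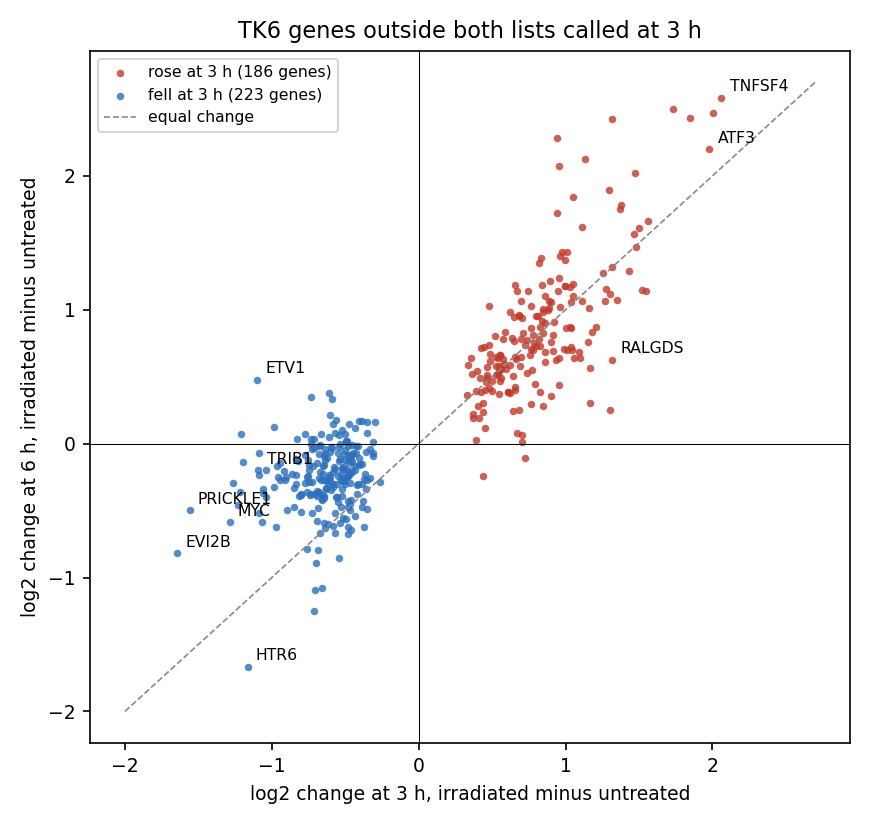
Each point is 1 of the 409 genes outside the lists called at 3 h, with its log2 change at 3 h on the horizontal axis and at 6 h on the vertical axis (irradiated minus untreated at the same time, 3 against 3 arrays each). The 186 rises (red) scatter about the dashed line of equal change, with a 6 h median of 0.75. The 223 falls (blue) lie mostly above it, between the line and no change, with a 6 h median of -0.24. The points were chosen for their 3 h change.

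U2OS and BJ, at the same dose and time, were set against TK6 in 1 fit of 45 arrays. They were chosen because their irradiated arrays stood apart from their untreated arrays in the p53 list, that is, by their response in these data. Arrays labelled G361 and HepG2, also irradiated and untreated at 3 h, were left out of this comparison. The median change of the 186 rises was 0.21 in U2OS and 0.05 in BJ, and 5 and 1 of them were called higher there (background 0.33% and 0.112%). That of the 223 falls was 0.03 in U2OS and -0.06 in BJ, and 5 and 0 were called lower (background 0.119% and 0.0211%). The difference between the TK6 effect and the mean effect of U2OS and BJ was called for 163 genes (1.15% of those tested, 0.64% higher and 0.506% lower in TK6), among them 50 of the rises and 36 of the falls, each larger in TK6 in its own direction. The rises and falls were chosen by the same TK6 change that enters this difference, which largely fixes that direction and raises these counts. With the replicate block it was called for 328 genes, and without replicates 2 or 3 of each group for 27 and 25.

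TNFSF4 changed by 0.14 in U2OS and -0.28 in BJ, a difference of 2.13 from TK6 (adjusted p = 3.15e-06). ENC1, CEACAM1, RGL1, ZNF697, PXT1 and LINC01588 likewise had changes between -0.47 and 0.15 in U2OS and BJ, with differences of 1.44 to 2.09 (adjusted p at most 0.000184). EVI2B differed by -1.42 (adjusted p = 0.000133). Its untreated means at 3 h were 2.59 log2 in U2OS, below the level limit, and 3.58 log2 in BJ, close to it. A fall from such levels could hardly be measured, and the part of this in the EVI2B difference was not tested. ATF3, in contrast, changed by 1.97 in U2OS and 1.23 in BJ, and its difference from TK6 was 0.38 ± 0.27 (SE, adjusted p = 0.874). MIR34A changed by 0.95 and 0.75 and MYC by -0.88 and -0.45 in U2OS and BJ, and neither difference was called (adjusted p = 0.911 and 0.219), which does not show that the effects are equal.

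**Figure D4:**
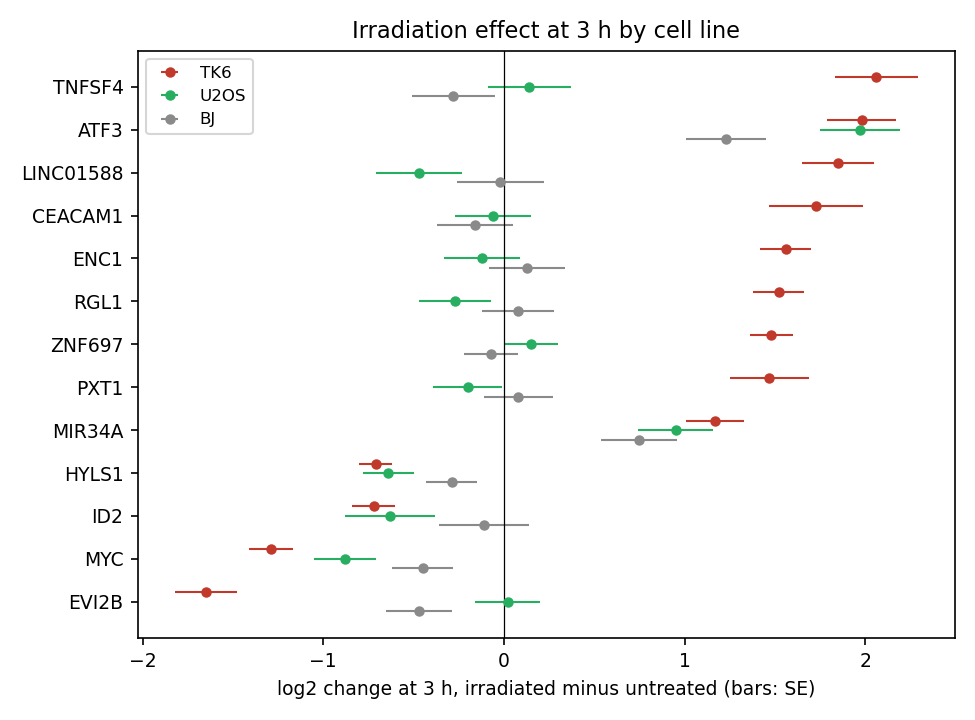
The horizontal axis is the log2 change at 3 h (irradiated minus untreated), with its SE as a bar, in TK6 (red), U2OS (green) and BJ (grey), for 8 called genes outside the lists with the smallest adjusted p of the line difference and 5 others chosen after their values were seen. TNFSF4 is at 2.06 in TK6 and within 0.3 of 0 in the other lines. ATF3 is above 1 in all 3 lines, and MYC is below -0.4 in all 3.

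The tested protein-coding genes were put in order along each chromosome, at any distance and passing over untested and noncoding genes. Consecutive genes that were both called outside the lists formed 19 pairs, of which 13 moved in the same direction and 6 in opposite directions. How many such pairs would arise without any link between neighbours was not computed, so these counts show no shared regulation. EVI2B and EVI2A (chromosome 17), GPR18 and GPR183 (chromosome 13) and TLR10 and TLR1 (chromosome 4) fell together. STX6, a membrane fusion protein, and MR1 (chromosome 1) rose together (0.80 and 1.11), as did the lipase gene CEL and RALGDS (chromosome 9, 0.96 and 1.32). The CEL call was lost without replicate 2 of either group, irradiated replicate 1 or untreated replicate 3 (adjusted p up to 0.215). DYRK2 and IFNG (chromosome 12) moved in opposite directions (-0.68 and 1.32).

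The promoters of mitotic genes carry the cell cycle genes homology region, or CHR, whose core letters are TTTGAA, often with CCAAT boxes, the sites of the factor NF-Y. Through the CHR the DREAM complex is known to repress these genes after p53 activation. The letters TTTGAA and CCAAT were searched on both strands in the 300 bases from 250 before to 50 after each gene start (RefSeq, GRCh38.p14), and neither motif is part of the other. A window was given for 186 of the 223 falls, and 31 of them (16.7%) held TTTGAA, against 14 of 142 rises (9.86%) and 1168 of 11322 genes tested (10.3%). For the falls of the list of G2 and mitosis the share was 47 of 65 (72.3%). TTTGAA with CCAAT in the same window was in 17 of the 186 falls (9.14%), 39 of the 65 mitotic falls (60%) and 4.28% of genes tested.

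CCAAT, with or without TTTGAA, was not more common in the falls outside the lists (31.2%) than in the rises (38%) or in all genes tested (36.3%). The letters CACGTG of the E box, which MYC with MAX can bind, were in 10.6% of the rises, 10.2% of the falls and 9.8% of all genes tested. A p53 half-site was in 7.04% of the rises, 3.23% of the falls and 5.41% of all genes tested. Among rises of the p53 list it was in 7 of 71 windows (9.86%). Most genes of that list thus held none in this window, and its absence does not set a gene apart from them. A match describes letters and no binding.

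**Figure D5:**
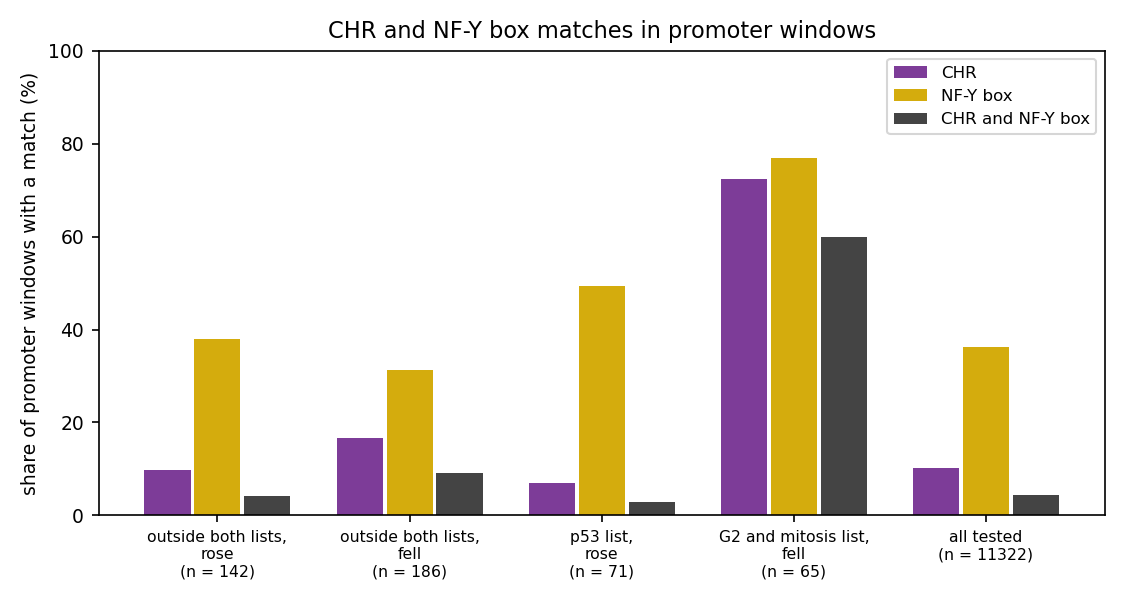
Bars give the share (%) of 300-base promoter windows with TTTGAA (CHR, purple), with CCAAT (NF-Y box, yellow) and with both (black), on both strands, for called genes by list and direction and for all tested genes. The falls of the list of G2 and mitosis reach 72.3% for the CHR, the falls outside the lists 16.7%, and all tested genes 10.3%.

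The 150 bases before the annotated start are shown for 4 genes that fell outside the list of G2 and mitosis and whose window holds both letter groups, beside PLK1, a mitotic kinase of that list, as a comparison. They show how the spacing of the letters varies. TTTGAA or its reverse complement and CCAAT or its reverse complement are in capitals, each sequence is read 5′ to 3′ on the gene's own strand, and the positions are SPDL1 chr5:169583623-169583772 (plus), CENPC chr4:67545504-67545653 (minus), NUP35 chr2:183124293-183124442 (plus), CDR2 chr16:22374620-22374769 (minus) and PLK1 chr16:23678739-23678888 (plus).
SPDL1: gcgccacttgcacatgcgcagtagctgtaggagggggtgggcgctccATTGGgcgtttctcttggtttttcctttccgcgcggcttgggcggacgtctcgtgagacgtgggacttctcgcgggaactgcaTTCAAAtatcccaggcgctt
CENPC: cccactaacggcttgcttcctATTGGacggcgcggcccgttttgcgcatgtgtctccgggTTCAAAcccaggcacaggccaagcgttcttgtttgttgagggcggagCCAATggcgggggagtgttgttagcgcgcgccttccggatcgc
NUP35: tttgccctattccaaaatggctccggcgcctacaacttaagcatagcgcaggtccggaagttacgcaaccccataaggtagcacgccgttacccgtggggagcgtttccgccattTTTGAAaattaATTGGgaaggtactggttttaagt
CDR2: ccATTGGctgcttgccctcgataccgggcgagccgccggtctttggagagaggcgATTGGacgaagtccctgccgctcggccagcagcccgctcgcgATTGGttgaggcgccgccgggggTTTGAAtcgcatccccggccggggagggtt
PLK1: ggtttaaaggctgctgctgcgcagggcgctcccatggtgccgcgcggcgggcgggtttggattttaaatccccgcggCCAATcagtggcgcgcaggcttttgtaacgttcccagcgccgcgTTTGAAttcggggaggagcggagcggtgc

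SPDL1, a spindle protein that recruits dynein to kinetochores, was at 7.86, 8.29 and 8.20 log2 in irradiated arrays and at 8.65, 8.79 and 8.84 log2 in untreated ones (-0.64 ± 0.11, adjusted p = 0.0013). NUP35, a nucleoporin, was at 8.57, 8.93 and 8.75 log2 in irradiated arrays and at 9.30, 9.56 and 9.51 log2 in untreated ones (-0.71 ± 0.11, adjusted p = 0.000503). CDR2 was at 8.13, 8.24 and 8.22 log2 in irradiated arrays and at 8.91, 8.93 and 8.94 log2 in untreated ones (-0.73 ± 0.09, adjusted p = 5.25e-05). None of these groups overlapped. CENPC, which anchors the kinetochore to the centromere, changed by -0.61 ± 0.15 (adjusted p = 0.0203), and its call was lost without replicate 1 or 3 of either group (adjusted p up to 0.0984). PLK1 changed by -1.45 ± 0.12 (adjusted p = 4.24e-07), with 7.51, 7.69 and 7.52 log2 in irradiated arrays and 9.26, 8.73 and 9.07 log2 in untreated ones. SPDL1, NUP35, CENPC and PLK1 were chosen after their values were seen.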

How the data were processed

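RNA of TK6 cells was hybridised to single-sample oligonucleotide arrays. The authors deposited log2 expression values, for which the submitters' processing notes name RMA. Its version, the joint or separate normalization of the lines and the genome build are not given in the sources used here. All 75 arrays were used in the group of their label, and 0 TK6 arrays were identical. An array has no depth, and the number of arrays limits the precision.

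Of 54675 probe sets, 41097 had 1 gene symbol, 1801 several and 11777 were unnamed here; only the first kind was used. Each of 19775 genes was represented by its brightest probe set, judged by the mean of all 75 arrays (10523 genes had more than 1). Symbols were checked through gene identifiers (41043 matched, 0 changed). Genes with a mean over the 15 TK6 arrays over a limit of 3.52 log2, the 40th percentile taken across every probe set, were tested. A model with 5 group means (10 residual degrees of freedom) was fitted with limma 3.58.1 in R 4.3.3, with eBayes and a trend. Benjamini-Hochberg adjustment ran across all 14227 genes tested. Lines were compared with 15 group means over 45 arrays. The fit was tested on simulated data.

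The members and the gene lists were chosen with earlier results of these data known. Genes named were the 16 largest rises and 16 largest falls outside both lists with groups that did not overlap and a higher mean above the limit, at most 4 calls per list by adjusted p, up to 3 uncalled members per list chosen for their role, the 4 calls of smallest adjusted p of the p53 and the mitosis list, and the 8 calls outside the lists with the smallest adjusted p of the time difference and of the line difference. Genes picked with their values in view are named as such in the text. Also picked in this way were IER3, IER5, SPRY2, KLF2, ETS2, CDC6, IFNGR1, GPR183, STX6, CEL and DYRK2. The uncalled members given for their role, such as NFKBIA, EGR1, PAX5 and ATM, were likewise picked with their values in view.

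Same-numbered irradiated and untreated arrays correlated at 0.579, 0.210 and 0.178 after the group means were removed. Irradiated replicate 3 with untreated replicate 2 correlated at 0.255, and the other differently numbered arrays at -0.426 to 0.0253. Only replicate 1 thus stood out, and these values do not settle that the replicate numbers pair the arrays. The calls and p-values in the text are from the fit without the block unless it is named. Blocked counts are given where they move a count of calls by over 1.5 times.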

Additional observations from a re-analysis of the deposited data

Results flagged for a closer look

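Of the genes named, the following had an irradiation effect in TK6 at 3 h that differed from the mean effect of U2OS and BJ at an adjusted p under 0.05 by limma (TK6 minus the others, log2). All were called by the TK6 change that enters this difference, which favours a larger effect in TK6. More positive in TK6 outside the lists were TNFSF4 (2.13), PAPLN (1.79), LINC01588 (2.09), CEACAM1 (1.84), ENC1 (1.55), LIF (1.47), RGL1 (1.62), TNFSF9 (1.28), ZNF697 (1.44), PXT1 (1.54), CYSRT1 (1.31), MYBL1 (1.54), TANC1 (1.11), CHRNA6 (1.18), PGAP1 (1.17), BLNK (0.83), CSF1 (0.82), RAD51C (0.81), APTX (0.67), CLP1 (0.63), CSTF3 (0.70), NUPR1 (1.19), SDC1 (0.83), MR1 (1.47), IFNG (1.44), PDE4B (1.08), SMAD5 (0.71), APOBEC3G (1.21) and F5 (1.34). More negative in TK6 outside the lists were EVI2B (-1.42), PRICKLE1 (-1.55), IPCEF1 (-1.29), ZNF318 (-1.20), ST8SIA4 (-1.26), HTR6 (-1.11), TRIB1 (-1.12), RIPOR2 (-1.24), P2RY10 (-1.30), TNF (-1.03), H2AC6 (-0.83), SP100 (-0.80), PIK3CG (-0.77), TLR10 (-0.98), TLR1 (-0.76), HHEX (-0.95), LCP2 (-0.97), CYTIP (-0.88) and EOMES (-1.04). Within the lists of p53-induced genes and of G2 and mitosis, the differences were CDKN1A (0.95), TP53INP1 (1.66), PSRC1 (-2.32), AURKA (-1.07), KIF14 (-1.22), DEPDC1 (-1.29), NINJ1 (0.67), APAF1 (1.68), PRKAB1 (1.08) and PLK1 (-1.13). The levels of B lymphoid genes differ between these lines, and the part of that in these differences was not tested. Some genes more negative in TK6 had untreated 3 h means below the level limit in the other lines. They were IPCEF1, ST8SIA4, P2RY10, PIK3CG, TLR10, TLR1, LCP2, CYTIP and EOMES in both, and EVI2B in U2OS. A fall from such levels could hardly be measured. PRICKLE1, ZNF318, TRIB1, RIPOR2, HTR6, TNF, H2AC6 and SP100 were above the limit in both, and HHEX lay near it in U2OS. Some of these were above the limit by less than their TK6 fall. They were HTR6 (4.22 log2 in U2OS and 3.76 log2 in BJ), TNF (3.95 log2 and 4.06 log2) and RIPOR2 in U2OS (4.16 log2). A fall as large as that in TK6 could hardly be measured there either.

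The irradiation effect in TK6 at 6 h differed from that at 3 h (6 h minus 3 h, log2) for ETV1 (1.58), TRIB1 (0.89), IER2 (0.66), ZNF443 (0.85), HYLS1 (0.68), CDR2 (0.73), GPR18 (0.82) and UBALD2 (1.08) outside the lists, and for PSRC1 (2.14), AURKA (1.40), KIF14 (1.26), DEPDC1 (1.37) and STIL (0.86) within them. All of these genes fell at 3 h and had a smaller fall or a positive change at 6 h. They were called by the 3 h change that this difference subtracts.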

How the results depend on the processing

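Of 133 called genes named, 93 kept the call without any single array, 80 kept it in every setting run on all arrays, and none changed sign. With the replicate block the counts grew to 1203 genes at 3 h, 1868 at 6 h, 146 for the difference between the times and 328 for that between the lines, and to 480 rises and 539 falls outside the lists; the block ended no call among the 409. Leaving out 1 array or 1 replicate number gave 211 to 558 genes at 3 h, 246 to 823 at 6 h, 0 to 51 for the times, 25 to 193 for the lines, 64 to 209 rises and 36 to 216 falls outside the lists. Fewer arrays were fitted in these settings. With the 6 compared arrays alone 122 rises and 137 falls were called, and without a trend in eBayes 26 genes differed between the times, and the cause was not tested. The level filter, quantile normalization and the mean of all probe sets kept each of these counts within 1.5 times. Of the 133 genes, 75 had another probe set above the level limit, and in 9 of them one had the opposite sign. Genes near the level limit of 3.52 log2, such as PXT1 and TGIF1, have a change that the limit bounds. Fewer cells of a type and less RNA per cell cannot be told apart in bulk RNA.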
